A study of Homo sapiens with 4 samples.

Results

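Cytosolic ribosomal protein genes were described in ChIP-seq peak lists from the human line SK-Hep1, labelled as hepatic adenocarcinoma. The members are 56 RPL and RPS genes, 34 for the large and 22 for the small ribosomal subunit, of 19821 protein-coding genes, chosen by family name with earlier results of these data known. Acetylation of histone H3 at lysine 27 (H3K27ac), which marks active regulatory DNA, was profiled in cells with a control shRNA and in cells with an shRNA that targets SMARCB1 (the knockdown). SMARCB1, a subunit of SWI/SNF chromatin remodelling complexes, was itself profiled in 1 more library, whose labels name no shRNA. Cells carrying an shRNA had been selected with puromycin as a stable population of this 1 line. Each group had 1 library, so differences between libraries have no replicates behind them and were not tested.

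The control H3K27ac library held 13235203 tags and the knockdown library 10203310, a ratio of 1.30, and no source used here states the depth of the SMARCB1 library. Fewer cells with the mark and less of it per cell cannot be told apart in such lists. The RNA that the shRNA targets was not measured, so the knockdown itself is not checked here. H3K27ac lay at 6 of 6 mesenchymal marker genes in the control and 5 of 6 in the knockdown, which lacked it at COL1A2. It lay at 2 of 8 hepatocyte genes, APOA2 and SERPINA1, in both. No peak of either library lay at ALB, TTR, FGB, APOA1 or HNF4A, so the mark was absent from most defining hepatocyte genes. Endothelial markers carried it at 3 of 6 genes in the control and 4 of 6 in the knockdown, and leukocyte markers at 2 of 4 (PTPRC and CD14) in both.

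Ribosomal proteins fold and stabilise the ribosomal RNAs, and a ribosome needs a copy of nearly every one of them, so their genes are transcribed together at high rates in growing cells. Their transcripts are known for a terminal oligopyrimidine tract, a C followed by a run of C and T, through which the mTOR pathway sets their translation. Many of their introns also hold small nucleolar RNA genes, whose products guide the modification of ribosomal RNA. SWI/SNF complexes move or evict nucleosomes at promoters and enhancers.

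The start sites show what these genes share before any measurement. RefSeq lists a start for 48 of the 56 members, and the others are RPL5, RPL7, RPL8, RPL23, RPL30, RPL37, RPS2 and RPS20. The first transcribed base was C in 36 of 48 members, or 75%, against 11.3% of 15812 protein-coding genes with a listed start. A run of 8 or more C or T bases that touched the 2 bases on either side of the start was found in 33 of 48, or 68.8%, against 8.96% of all these genes. The 10 stretches below are from RefSeq on GRCh38.p14, 15 bases before the outermost listed start and 15 from it on, with the run at the start in capitals. They are the members of highest SMARCB1 value with a listed start, from RPS29 to RPS18, and then the members without a SMARCB1 peak that had the longest control H3K27ac, from RPL28 to RPS9.
RPS29: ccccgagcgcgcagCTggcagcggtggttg
RPL4: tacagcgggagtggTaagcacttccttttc
RPLP0: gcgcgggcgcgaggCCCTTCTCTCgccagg
RPS6: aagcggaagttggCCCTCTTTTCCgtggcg
RPL11: cgcctcctggcccaTaaggccctcggccgg
RPS18: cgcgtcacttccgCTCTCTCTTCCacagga
RPL28: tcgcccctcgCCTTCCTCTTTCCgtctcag
RPS19: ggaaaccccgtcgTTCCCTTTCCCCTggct
RPL13: ggccctgctatcaTCCCagagtgcattgcg
RPS9: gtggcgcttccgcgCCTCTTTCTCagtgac
These stretches lie at chr14:49598696-49598725 (minus strand) for RPS29, chr15:66504841-66504870 (minus) for RPL4 and chr12:120201097-120201126 (minus) for RPLP0. For RPS6, RPL11 and RPS18 they lie at chr9:19380222-19380251 (minus), chr1:23691764-23691793 (plus) and chr6:33272060-33272089 (plus). Those of RPL28, RPS19, RPL13 and RPS9, all on the plus strand, lie at chr19:55385917-55385946, chr19:41860240-41860269, chr16:89560642-89560671 and chr19:54200843-54200872. Runs of 10 to 13 bases stood at the starts of RPLP0, RPS6, RPS18, RPL28, RPS19 and RPS9. RPS29, RPL4, RPL11 and RPL13 had runs of 1 to 4 bases there. Only runs at the listed start were counted, and the RPL4 stretch holds a longer run a few bases further on. A short run here therefore does not show that a transcript lacks the tract. Long runs therefore occurred among members with and without a SMARCB1 peak.

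From 250 bases before to 50 after the start, searched on both strands, CCGGAAG, the core of ETS factor sites, was found in 17 of 48 members, or 35.4%, against 14.1% of all 15812 promoters. CACGTG, the E-box that MYC binds, was found in 2 of 48 against 8.82%, and TGACTCA, the AP-1 motif, in 1 of 48 against 3.62%. GGGCGG, an Sp1 core, was about as frequent in members (56.2%) as in all promoters (58.3%), as was TATAAA (8.33% and 9.75%). GATGGCGG, part of the YY1 site, was found in 3 of 48 (6.25%) against 3.35%. The remaining motif searched, a longer one not spelled out here, was found in 3 of 48 members (6.25%) against 0.67% of all promoters. Relative to all promoters this was the largest excess among the motifs searched, though it rests on 3 members. All these matches describe letters in the window and not binding.

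SMARCB1 peaks were found at most of the ribosomal protein genes, and most lay inside the genes, downstream of their starts. A peak in the gene or within 2 kb was found at 44 of 56 members, or 78.6% (66.2 to 87.3%, a 95% Wilson interval as in all shares below, which covers counting error only). The background was 18.5% of all protein-coding genes. Large subunit genes had one at 28 of 34 and small subunit genes at 16 of 22. There were 74 such peaks in all, with 1 at 21 members, 2 at 17, 3 at 5 and 4 at 1. The members without one are named beside their H3K27ac values.

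The share with a SMARCB1 peak was then set beside H3K27ac coverage. Among other protein-coding genes with control H3K27ac, the share with a SMARCB1 peak went from 13.8% at covered lengths of 14 to 1833 bp to 36.9% at 4710 bp and more. The members did not follow that order. All 6 with under 2816 bp had a SMARCB1 peak. Of the 36 members with 2816 to 4709 bp, 28 had a SMARCB1 peak, against 27.1% of other genes there. Of the 14 members with 4710 bp and more, 10 had one. Ribosomal protein genes are short, with a median record of 5132 bp against 24482 bp for all protein-coding genes. Between 2791 and 14116 bp, the range that holds 44 members, 35 members (79.5%) and 24.7% of other acetylated genes had a SMARCB1 peak.

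**Figure D1:**
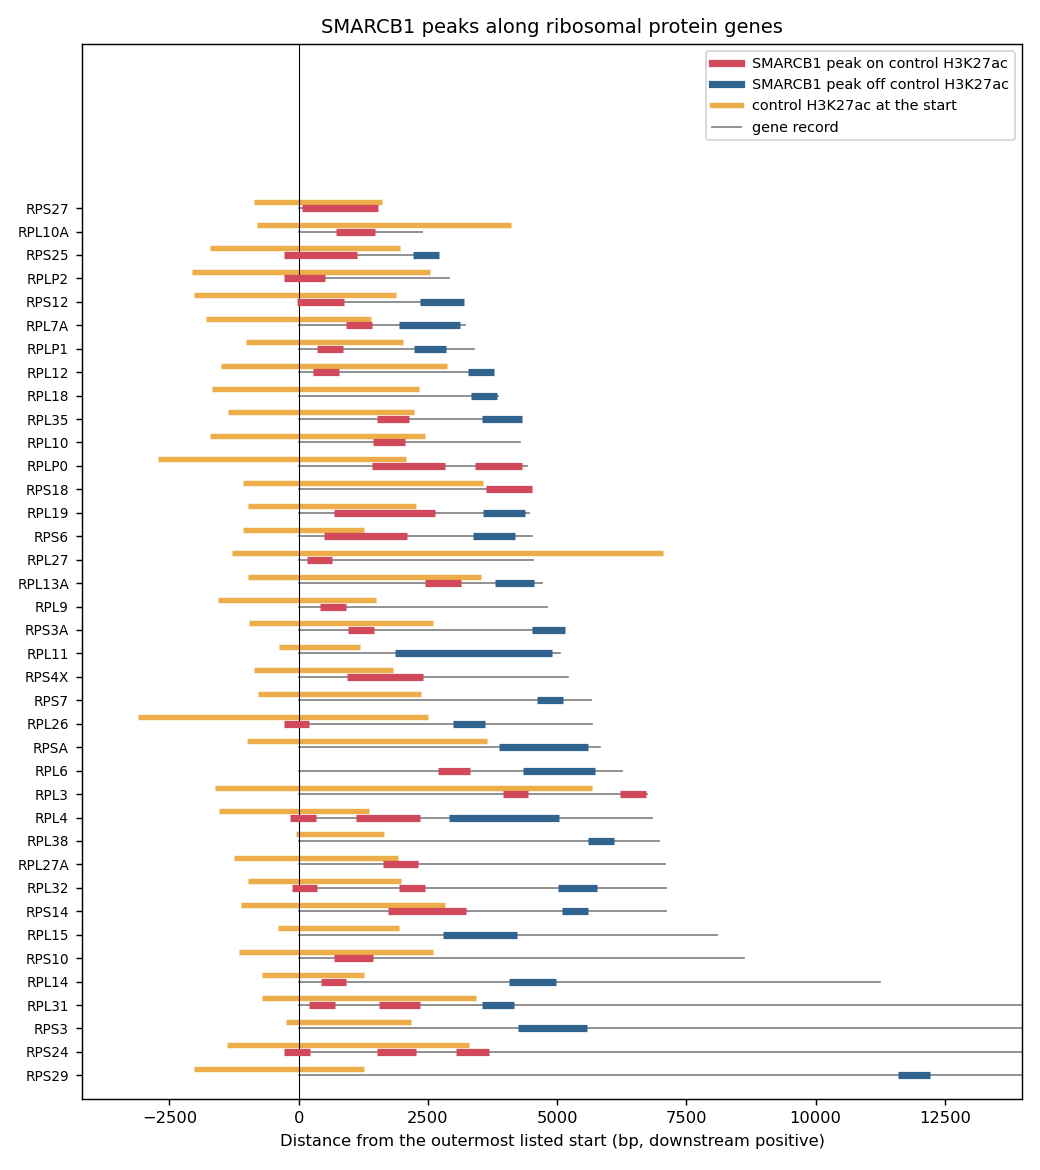
SMARCB1 peaks along the members that have a listed start and a SMARCB1 peak. The x axis is the distance in bp from the outermost listed start, thin lines are gene records cut at the end of the axis, yellow bars are control H3K27ac within 500 bp of the start, and SMARCB1 peaks are red on and blue off control H3K27ac. Blue peaks lie downstream of the yellow bars, often near the end of the record. A peak of RPL6 at −7896 bp from its nearest listed start is outside the axis, and RPL6 has no H3K27ac within 500 bp of the start drawn.

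The SMARCB1 list gives each peak a number, the authors' own, with no unit stated, which is used only to rank peaks within the list. Member peaks had a median of 24.6 (lowest 9.51, highest 1166.7), against 11.6 for all 4453 peaks. They were 1.66% of all peaks but 21 of the 101 peaks that hold ranks up to 100, and 68 of the 74 were at or above the list's median. They were also wider. Only 26 of 74 (35.1%) had the smallest width of 500 bp, against 66.8% of all peaks, and the widest, at RPL11, spanned 3039 bp.

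RPS29, a small subunit protein, had the highest number, 1166.7, rank 3 of the whole list. That peak of 625 bp at chr14:49586492-49587116 overlapped RN7SL1, the RNA component of the signal recognition particle, which lies inside the long RPS29 record. The peak's centre lay 11906 bp downstream of the only start listed for RPS29, though the authors classed the peak promoter-TSS. Starts that are not listed were not considered, and the RPS29 record, at 27723 bp, is the longest of the members. The placement of this peak rests on that 1 start, and whether it lies near an unlisted start of RPS29 was not examined. Without RPS29 the highest number at a member was 99.3 and the median 24.3.

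Among large subunit genes, RPL4, whose product lines the peptide exit tunnel, had 3 peaks. The highest, with a number of 99.3, covered chr15:66499827-66501953, centred 3965 bp downstream of the start, and another of 78.7 was centred at 1720 bp. The third, at 82 bp from the start, had a number of only 12.1. At RPL11, which joins the 5S ribonucleoprotein with RPL5, 1 peak with a number of 85.6 filled chr1:23693639-23696677, which is 3039 bp of a gene record of 5057 bp. RPLP0, the base of the ribosomal stalk that recruits elongation factors, had a peak of 96.1 at chr12:120198285-120199686, centred at 2125 bp, and one of 30.6 at 3864 bp. Its stalk partners RPLP1 and RPLP2 had highest numbers of 25.9 and 32.2. RPLP2's only peak was centred 110 bp from its start, and in the other 4 of these genes the highest number lay over 500 bp downstream.

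RPL15 had a single peak of 54.9 in its 3' UTR by the authors' class, centred 2917 bp downstream. RPL5, the partner of RPL11, had the most peaks, 4, with numbers from 11.1 to 23.2. All 4 also overlapped the record of another coding gene, DIPK1A. They were not placed, as RPL5 has no listed start. RPL6, RPL31 and RPL32 had 3 each, with highest numbers of 48.6, 24.3 and 34.3. At RPL6, 1 of the 3 lay upstream, at −7896 bp from the nearest listed start, in the neighbouring gene PTPN11. The RPL6 record runs to chr12:112418835, past its outermost listed start at 112411442, and this peak begins at 112419088.

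Among small subunit genes, RPS6, the target of the S6 kinases, had peaks of 90.3 at chr9:19378132-19379737 and 49.6 at chr9:19376044-19376857, centred 1301 and 3785 bp downstream. RPS18, a protein of the subunit's head, had a single peak of 82.4 centred 362 bp before the end of the record. RPS27 had a peak of 71.3 over 1478 bp, longer than its gene record of 1394 bp. RPS14 had peaks of 58.6 and 14.3, and RPS20 a single one of 70.8 classed by the authors as TTS, a transcription end site. This RPS20 peak overlapped the non-coding records SNORD54 and CERNA3. It was not placed, as RPS20 has no listed start, so the class does not show that it lies at the end of RPS20. RPS24 had 3, of 15.3, 48.1 and 19.0, and the lowest of these was the one at the start.

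The other members with a SMARCB1 peak had highest numbers from 9.51 at RPL27 to 50.2 at RPSA, and are given after their values were seen to show how far into the gene the peak lay. RPSA, which is also known as the laminin receptor precursor, had a single TTS peak centred 4737 bp downstream of its start. RPS3, a protein of the mRNA entry channel, had 1 of 49.6 at 4909 bp, and RPS7 had 1 of 15.3 at 4857 bp. None of these overlapped H3K27ac of the control. RPS2 had a single TTS peak of 47.5, also off control H3K27ac.

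Peaks nearer the start lay on control H3K27ac. RPS4X, the X-linked form of its protein, had 1 of 44.9 at 1669 bp, and RPS10 1 of 44.4 at 1053 bp. RPL10, which completes the large subunit late in its assembly, had 1 of 22.2 at 1315 bp. RPL10A had 1 of 24.8 at 1095 bp, RPL27A 1 of 25.9 at 1965 bp and RPL9 1 of 11.6 at 669 bp.

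Some members had a pair of peaks. RPL19 had peaks of 44.4 at 1618 bp and 42.8 at 3926 bp, RPL7A of 11.6 at 1173 bp and 48.1 at 2524 bp, and RPL13A of 18.0 at 2799 bp and 40.1 at 4179 bp. In RPL14 they had numbers of 9.51 at 673 bp and 25.9 at 4523 bp, and in RPS3A of 10.6 at 1208 bp and 21.1 at 4831 bp. RPL35 had 15.8 at 1820 bp and 25.4 at 3935 bp, and RPL12 had 12.1 at 532 bp and 14.8 at 3524 bp. The nearer peak was the higher at RPL19, and also at RPS12, with 30.6 at 418 bp and 17.4 at 2772 bp, and at RPS25, with 40.7 at 421 bp and 10.0 at 2466 bp. Over all 15 members with a pair of placed peaks, 13 had the nearer one on and the further one off control H3K27ac. The further peak had the higher number at 8 of the 15 and the nearer at 7, so neither place was regularly the higher.

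By the authors' classes, 24 of the 74 peaks were intron, 19 promoter-TSS, 16 TTS, 13 exon and 2 in a 3' UTR. None was non-coding or in a 5' UTR (0 of 74 allows up to 4.93% in each). None was intergenic either, which the choice of peaks within 2 kb of a gene largely sets. TTS peaks made up 21.6% (13.8 to 32.3%) against 2.60% of all SMARCB1 peaks. Every member TTS peak but those of RPL35, RPL38 and RPS25 had a small nucleolar RNA record within 1 kb of its centre. Placed TTS peaks were centred from 139 bp (RPL35) to 4910 bp (RPL32) before the end of the gene record. Whether the class refers to the member's own end or to that of a small nucleolar RNA was not looked up. The whole list includes 18.5% intergenic peaks and peaks in longer genes. No TTS share was taken for other genes of member length. Promoter-TSS peaks, at 25.7% (17.1 to 36.7%), were near the 29.2% of the whole list. Most promoter-TSS peaks at members with a listed start lay away from it, and which start the class refers to was not looked up. Of 17 promoter-TSS peaks at members with a listed start, 5 were centred within 500 bp of one and 10 were centred over 1 kb from one. Of those 10, 8 had a small nucleolar RNA record within 1 kb of the peak's centre, such as SNORD16 and SNORD18A at RPL4, SNORD15B at RPS3 and the SNORD36 genes at RPL7A. The peak at RPS29 lay on RN7SL1, and the one at RPS18 had no non-coding record within 1 kb.

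Small nucleolar RNA genes lay inside 22 of the 56 members, 44 records in all. SMARCB1 peaks were found at 17 of these 22 hosts and at 27 of the 34 other members, shares of 77.3% and 79.4%. Other protein-coding hosts of such RNAs had a SMARCB1 peak in 29.5% of 501 cases. Of the 74 member peaks, 14 overlapped a small nucleolar RNA record. The ribosomal protein genes without such a record therefore carried SMARCB1 peaks about as often as those with one.

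Placement was measured for 63 peaks at members with a listed start, from the peak's centre to the nearest listed start. The median was 2466 bp downstream. Of the 63, 53 (84.1%, 73.2 to 91.1%) were centred over 500 bp downstream and 9 (14.3%) within 500 bp of a start, with 1 further upstream. By gene, 36 of 48 members had a peak over 500 bp downstream, against 8.41% of 15812 protein-coding genes, and 9 of 48 (18.8%, 10.2 to 31.9%) had one within 500 bp of the start, against 10.1%. The members stood much further above the background within the genes than at their starts. At other protein-coding genes, 44.0% of 3524 placed pairs of a peak and a gene were over 500 bp downstream and 45.2% at the start. Among other genes of 2791 to 14116 bp these shares were 41.8% and 47.1% of 775.

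Numbers by place are given next. The 9 peaks at starts, those of RPL4, RPL26, RPL27, RPL31, RPL32, RPLP2, RPS12, RPS24 and RPS25, had a median of 15.3 and a highest of 40.7. The 53 peaks over 500 bp downstream had a median of 25.9. Within these it was 22.2 up to 1500 bp, 44.6 from there to 3000 bp and 25.6 beyond. At other protein-coding genes the medians were 13.7 at the start and then 12.1, 11.8 and 10.6. Of the 48 placed members, 7 had peaks both at a start and further downstream.

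**Figure D2:**
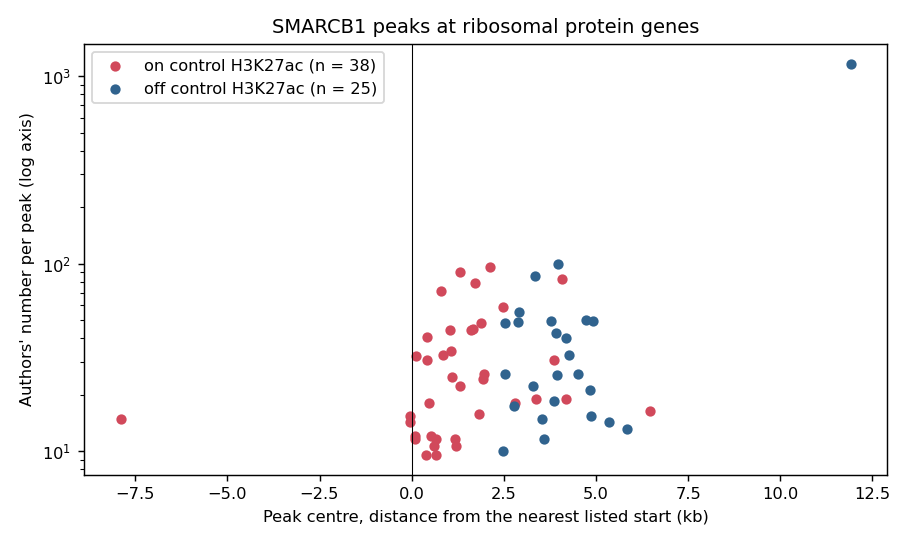
The authors' number for each of the 63 placed SMARCB1 peaks (log axis) against the distance of its centre from the nearest listed start in kb. Red points overlap control H3K27ac (38 peaks, median distance 1134 bp) and blue points do not (25 peaks, median distance 3926 bp), and the point near 12 kb is the RPS29 record's peak of 1166.7.

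The share of SMARCB1 peaks that lay on H3K27ac fell with distance from the start, at members and at other genes alike. All 9 peaks within 500 bp of a start overlapped control H3K27ac, as did all 13 further downstream up to 1500 bp. From there to 3000 bp, 10 of 16 did (62.5%, 38.6 to 81.5%). At other protein-coding genes these shares were close, at 98.6%, 93.6% and 66.7%. Beyond 3000 bp 5 of 24 did at members (20.8%, 9.24 to 40.5%), against 42.5% (39.7 to 45.3%) at other genes. The same share beyond 3000 bp was 50.3% (43.2 to 57.3%) of 191 pairs at other genes of member length. Over all 74 peaks, 42 (56.8%, 45.4 to 67.4%) overlapped control H3K27ac and 44 (59.5%) knockdown H3K27ac, against 70.6% and 69.0% of all SMARCB1 peaks. Peaks on and off control H3K27ac had nearly the same median number, 24.0 and 25.6. TTS peaks overlapped it in 4 of 16 cases and promoter-TSS peaks in 15 of 19.

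Between the libraries, 39 of the 74 peaks (52.7%) lay on H3K27ac in both and 27 (36.5%) in neither, against 67.9% and 28.3% of all 4453 SMARCB1 peaks. Peaks at RPL3, RPL32 and RPS24 lay on it in the control only. Peaks at RPL7, RPL15, RPL19, RPS25 and RPS29 did so in the knockdown only. These 3 (4.05%, 1.39 to 11.3%) and 5 peaks (6.76%, 2.92 to 14.9%) stand beside 2.72% and 1.15% of all SMARCB1 peaks.

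Processed pseudogenes, intronless copies made from spliced transcripts, are numerous for these genes. RefSeq names 1252 pseudogene records after the 56 members, and whether each is a processed copy was not checked. A SMARCB1 peak overlapped 5 of them, or 0.399% (0.171 to 0.931%). The 5 were RPL7P9, RPL10P9, RPS2P5, RPS2P15 and RPS4XP8, with numbers from 9.51 to 15.3 and no H3K27ac in either library. Reads that match both a gene and its copies can be placed on either, and no source used here says how the mapping treated them.

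**Figure D3:**
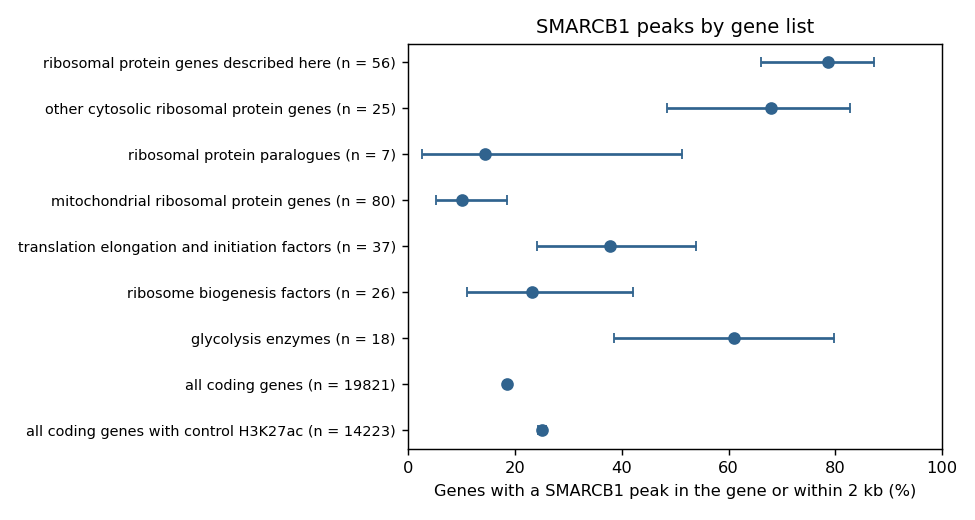
Share of genes with a SMARCB1 peak in the gene or within 2 kb, by gene list, with 95% Wilson intervals for counting error. The 56 members stand at 78.6%, the other cytosolic ribosomal protein genes at 68%, mitochondrial ribosomal protein genes at 10% and all protein-coding genes at 18.5%.

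The remaining cytosolic ribosomal protein genes resembled the members. Of 25 such genes, 17 (68%, 48.4 to 82.8%) had a SMARCB1 peak, and 12 of their 17 placed peaks were over 500 bp downstream of the start. Glycolysis enzymes had one at 11 of 18 genes (61.1%, 38.6 to 79.7%) and translation elongation and initiation factors at 14 of 37 (37.8%, 24.1 to 53.9%). Their placed peaks were over 500 bp downstream in 24 of 29 and 16 of 19 cases. Ribosome biogenesis factors had one at 6 of 26 (23.1%). Mitochondrial ribosomal protein genes, whose products make up the ribosome of another compartment, had one at 8 of 80 (10%, 5.15 to 18.5%), and ribosomal protein paralogues such as RPL3L at 1 of 7. All 80 mitochondrial ribosomal protein genes carried H3K27ac in both libraries, with a median control length of 2270 bp against 3972 bp at the members. Median gene lengths of these lists ran from 3951 to 23774 bp, so they are not matched on length.

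H3K27ac marked every member in both libraries, in the gene or within 2 kb. This was so for 69.5% of all protein-coding genes, while 2.28% were marked in the control alone and 1.1% in the knockdown alone. Covered length in this window, the only size the lists give, ran from 1563 to 9811 bp (median 3972 bp) for the control library. For the knockdown it ran from 2024 to 7586 bp (median 3692 bp). It was longer in the control at 39 of 56 members (69.6%, 56.7 to 80.1%) and in the knockdown at 17, and longer in the control at 75.1% of all genes marked in both. The median log2 ratio of control over knockdown was 0.11 over the members and 0.16 over all 13772 genes marked in both. The depths of these lists differ 1.30-fold. Over the 27 members whose window overlaps no other coding gene the median was 0.16, as for all genes.

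**Figure D4:**
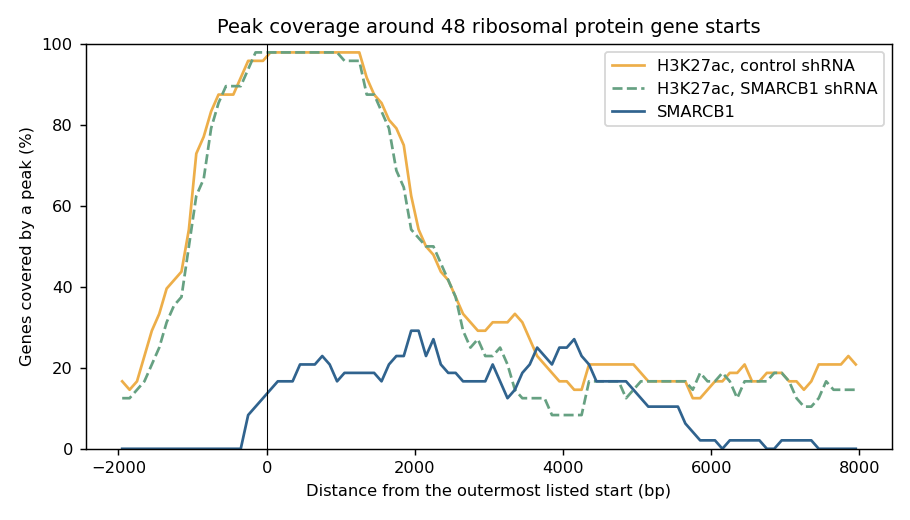
Share of the 48 members with a listed start that were covered by a peak at each distance from the outermost listed start, in steps of 100 bp. H3K27ac of both libraries covers 47 of 48 members just downstream of the start and falls with distance in both, while SMARCB1 is highest, at 29.2%, near 1950 bp.

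Along the genes, H3K27ac began upstream of the start and ended within the gene. At 47 of 48 members a peak covered the outermost listed start, in each library. RPL6 was the exception, with 2 listed starts, of which the outermost lay outside the H3K27ac peaks. Its other listed start lay inside H3K27ac of both libraries, at chr12:112407666-112410199 in the control and chr12:112407646-112410063 in the knockdown. From this start H3K27ac reached a median of 1107 bp upstream and 2104 bp downstream in the control. For the knockdown these were 1054 and 2017 bp. At 9610 other protein-coding genes it reached 955 and 1274 bp in the control. The end of the record was covered at 8 of 48 members in the control and 6 in the knockdown. At 1950 bp the control covered 30 of 48 members, the knockdown 26 and SMARCB1 14. At 3950 bp these counts were 8, 4 and 12, so that SMARCB1 covered more members there than H3K27ac did.

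The upstream edge of this H3K27ac lay further out in the control at 33 of 47 members and the downstream edge at 26 of 47, shares of 70.2% and 55.3%. At other protein-coding genes they were 72.1% and 71.2%. The median difference was 98 bp upstream and 32 bp downstream at members, and 103 and 108 bp at other genes. Counted inside the gene record alone, covered length was longer in the control at 28 members (50%, 37.3 to 62.7%) and in the knockdown at 25, against 70.3% of all genes longer in the control, with a median log2 ratio of 0.00035 against 0.14 for all genes marked in both. The members' shares were thus near those of other genes upstream and lower downstream.

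**Figure D5:**
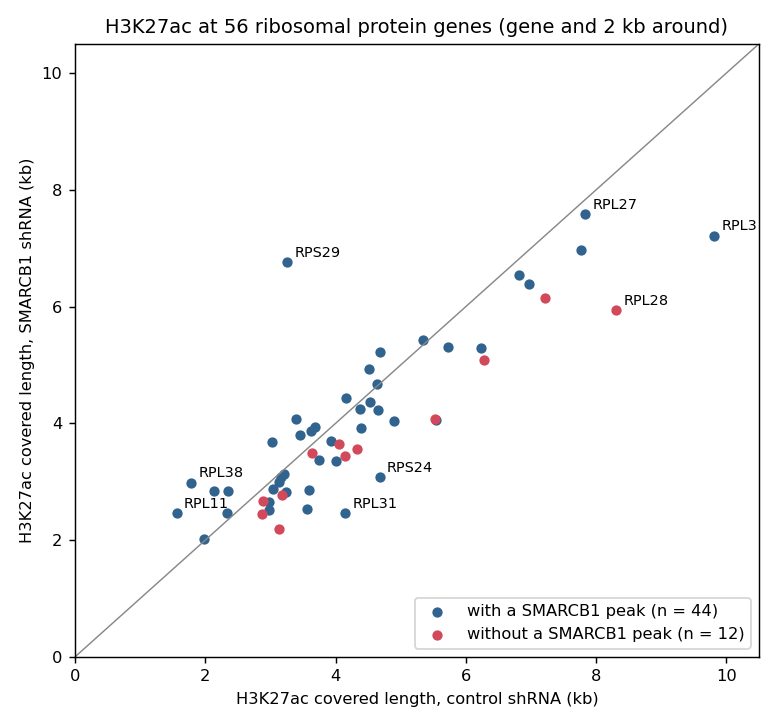
H3K27ac covered length in kb in each of the 56 members and 2 kb around it, control shRNA (x axis) against SMARCB1 shRNA (y axis), with the line of equal length. The 12 members without a SMARCB1 peak (red) all lie below the line, and the 44 with one (blue) lie on both sides, with RPS29 furthest above it.

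The members were then split by SMARCB1. The 12 without a SMARCB1 peak were RPL13, RPL22, RPL24, RPL28, RPL30, RPL37, RPS9, RPS13, RPS15, RPS16, RPS19 and RPS23. All 12 had the longer coverage in the control, with log2 ratios from 0.06 to 0.52 and a median of 0.25. Of the 44 with a SMARCB1 peak, 27 did, with ratios from −1.06 to 0.75 and a median of 0.06. Longer control coverage was the usual case, at 75.1% of all genes marked in both. The Wilson intervals of the members' shares were 75.8 to 100% for the 12 and 46.6 to 74.3% for the 44. These intervals cover counting error over genes and not variation between libraries, so they cannot serve as a test of the split. The split was not among the planned comparisons. The ranges of the log2 ratios overlap, and the difference was not tested. At other protein-coding genes the medians with and without a SMARCB1 peak were both 0.16.

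Among the members without SMARCB1, RPL28 had 8308 bp of control and 5938 bp of knockdown coverage. RPS19, a gene mutated in Diamond-Blackfan anaemia, had 7218 and 6155 bp, and RPL13 had 6284 and 5079 bp. RPS9 had 5532 and 4081 bp, RPS16 4334 and 3567 bp, and RPL37 4141 and 3446 bp. RPL24, with 3137 and 2193 bp, had the largest log2 ratio of the 12, at 0.52. Control coverage was longer in each of these. The smallest difference among the 12 was at RPS13, with 3643 and 3486 bp, and RPL22, RPL30, RPS15 and RPS23 lay between, with log2 ratios from 0.11 to 0.23.

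Covered length was over 1.5-fold longer in the control at 2 of 56 members, against 9.88% of genes marked in both. These were RPL31, with 4145 bp of control and 2463 bp of knockdown coverage, and RPS24, with 4676 and 3075 bp. At RPL31 the control peak reached 3425 bp downstream of the start and the knockdown peak 1893 bp. At RPS24 a single control peak of 4676 bp stood against knockdown peaks of 2432 and 643 bp, and the SMARCB1 peak centred 3362 bp downstream lay on control H3K27ac only. RPS3A, with 3557 and 2538 bp, and RPL8, with 5537 and 4059 bp, had log2 ratios of 0.49 and 0.45. RPL3, a protein of the peptidyl transferase centre, had the longest control coverage of the 56 members, 9811 bp, against 7218 bp after knockdown.

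In the knockdown, 3 of 56 members were over 1.5-fold longer, against 2.31% of genes marked in both. RPS29 had 3255 bp of control and 6763 bp of knockdown coverage, a log2 ratio of −1.06. Its only listed start carried 1 peak in each library, of 3273 and 2922 bp. The knockdown list held 2 more in the window, of 2561 bp at chr14:49583968-49586528 and 1280 bp at chr14:49592484-49593763. The first of these overlapped the SMARCB1 peak at RN7SL1 by 37 bp. RPL38 had 1783 and 2982 bp. RPL11 had 1563 and 2461 bp, with the knockdown peak at chr1:23691122-23693582 ending just before the SMARCB1 peak began. RPL38, RPL11 and RPL14 (1974 and 2024 bp) had the shortest control coverage of the members.

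RPS20, RPLP1 and RPL15 came next, with 2129 and 2849 bp, 3031 and 3686 bp, and 2350 and 2846 bp. RPS20 had control peaks of 501 and 1628 bp and a single knockdown peak of 2849 bp. The control peaks covered 1298 bp and the knockdown peak all 1748 bp of its SMARCB1 peak at chr8:56072887-56074634. RPL15 had a second knockdown peak of 501 bp at chr3:23919353-23919853, inside its SMARCB1 peak. At RPLP1 the knockdown peak reached 1553 bp upstream of the start and the control peak 1013 bp. At RPL27, by contrast, 1 peak of nearly equal length covered the whole gene in both libraries, with 7838 and 7586 bp.

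Bases covered in 1 library only were then set beside the SMARCB1 peaks. At the 56 members, 16810 bp were covered in the knockdown only, and 4093 bp of these, or 24.3%, lay under SMARCB1 peaks. Without RPS29 the share was 31.3%. Of 33715 bp covered in the control only, 2970 bp, or 8.81%, did. At 3632 other protein-coding genes with a SMARCB1 peak the shares were 2.37% for the knockdown and 1.90% for the control. These other genes are longer, and all have a SMARCB1 peak, while some members have none. SMARCB1 peaks take up 62453 bp in the members' windows and 2645658 bp in those of the other genes. The share of all window bases under SMARCB1 peaks was not taken, so the shares above are not set against it. Both H3K27ac lists were called against the input of the control cells, and what part this or depth plays in the difference was not tested.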

How the data were processed

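Peak lists of 1 SMARCB1 and 2 H3K27ac ChIP-seq libraries were used, and an input library was not analysed here. The submitters' processing notes name Bowtie2, HOMER and the hg38 build. Per the file headers, the authors called each H3K27ac list with HOMER in histone style against the same control input, with a peak size of 500 bp and a 4-fold enrichment both over input and over local tags. The fragment length was 190 bp for the control and 158 bp for the knockdown library. The deposited H3K27ac score is 1 for every peak, so covered length was used. No source used here gives caller settings for the SMARCB1 list.

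Only autosomal and X-linked peaks entered, and overlaps of at least 1 base counted. Gene records and starts came from RefSeq (GRCh38.p14), without 153 coding records on alternate or unplaced sequences. Placement and covered lengths were checked on 500 simulated peaks, all placed as simulated, and with bedtools 2.31.1. Scripts ran in Python 3.11.15 with pandas 2.3.3, and intervals came from SciPy 1.17.1. Members and lists were chosen with earlier results of these data known. Genes were named by fixed ranks of SMARCB1 number, H3K27ac length and their ratio. The set of genes of member length was chosen after the values were seen.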

Additional observations from a re-analysis of the deposited data

How the results depend on the processing

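Windows of 0, 1 and 5 kb, the upper 50% of SMARCB1 peaks by number, 50% of the peak in the window, and peaks that overlap no other coding gene gave 41 to 45 of 56 members with a SMARCB1 peak. The promoter-TSS share stayed between 25% and 27.9%, and placement over 500 bp downstream between 74.6% (nearest peak edge) and 84.5%. Overlap with control H3K27ac was 45.9% when 50% of the peak had to be covered. With the wider 50% of H3K27ac peaks, 53 of 56 members were marked in both libraries. The median log2 ratio of covered length, 0.11, was 0.00035 inside the gene record alone, where all genes had 0.14. Under the other alternatives it lay between 0.08 and 0.16. It came up to the value of all genes with 10 kb windows (0.16 against 0.17) and without members whose window overlaps another coding gene (0.16). No paired analysis was possible because each group has 1 library. The number of libraries, and not depth alone, limits every comparison here.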
